A study of Mus musculus with 15 samples.

Results

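Hox genes encode homeodomain transcription factors that give cells their position along the body axis. In the mouse they lie in 4 clusters, HoxA to HoxD, and genes at the same place in different clusters (paralog groups, numbered from 1 at the anterior end to 13 at the posterior end) descend from a common ancestor and share much of their function. Polycomb proteins hold unused Hox genes silent through histone marks, and most of the CG-rich DNA of the clusters carries little methylation. In the kidney the group 11 genes are needed for the metanephric mesenchyme to induce the ureteric bud, and the group 10 genes for the stroma. The members here were taken by name: the 38 listed genes, of 46517 genes counted, of which 10 are in HoxA, 10 in HoxB, 9 in HoxC and 9 in HoxD. They also comprise the cytosines between the first and the last of these genes in each cluster that were read at least 10 times in every sample, 988 of 360390 such positions.

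The study concerned Dnmt1, the enzyme that copies DNA methylation to the new strand when a cell divides, and its removal from nephron progenitors of C57BL/6 mice. DNA methylation was measured by RRBS (reduced representation bisulfite sequencing, a restriction digest followed by bisulfite conversion that samples CG-rich DNA) in 3 control kidneys, Dnmt1 f/f at postnatal day 0 (P0), in 3 knockout (KO) kidneys, Six2Cre Dnmt1 f/f at P0, and in 3 adult wild type kidneys at 6 weeks. Poly(A) RNA was sequenced from 3 control and 3 KO kidneys of the same genotypes and age, and no adult RNA was analysed here. Six2Cre expresses Cre from Six2 regulatory DNA, so recombination is limited to nephron progenitors and the cells they give rise to, and the control mice carry the floxed alleles without Cre. The adult mice carry neither, so in the adult comparison age cannot be told apart from genotype. One label names Six2-positive cells and the extraction protocol names whole kidneys: markers of podocytes, tubules, endothelium and leukocytes were present in all 6 RNA libraries. A changed level in such bulk samples can come from fewer cells of a type or from less RNA per cell, and these cannot be told apart. Likewise, a methylation difference, in the KO or in adults, can come from another mix of cells or from a change within cells. These cannot be told apart either. The labels do not state that replicates were separate animals, so p-values measure the spread between these samples. The KO and adult comparisons use the same control samples.

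The RNA libraries held 26773937 to 34102567 reads assigned to genes, and the RRBS libraries 18424875 to 88765177 methylation calls, with the fewest in KO replicate 3. Dnmt1 was read at 180.0, 156.2 and 188.1 CPM (counts scaled to the size of each library) in the controls and at 109.9, 110.7 and 93.7 CPM in the KO samples, a log2 fold change of -0.74 (SE 0.12, adjusted p = 0.00577, edgeR's quasi-likelihood test with Benjamini-Hochberg adjustment). Over 351527 autosomal positions outside the clusters, methylation averaged 50.9% ± 0.185 (SD, n = 3) in controls, 37.5% ± 1.85 (SD, n = 3) in KO kidneys and 50.9% ± 0.324 (SD, n = 3) in adults.

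The start-region sequences of 5 members are given from RefSeq (GRCm38.p6). Each runs from 250 bases before to 50 bases after the start, 5′ to 3′ on the gene's strand, with every CG in capitals. Hoxd12 (chr2:74674763-74675062, plus strand) and Hoxd13 (chr2:74667975-74668274, plus strand) are shown because their RNA rose most in the KO, Hoxa5 (chr6:52204538-52204837, minus strand) and Hoxd4 (chr2:74721728-74722027, plus strand) because methylation around their starts was higher in adults, and Hoxa11 (chr6:52245761-52246060, minus strand) as a kidney regulator whose start stayed under 4% methylated in every sample.
Hoxd12: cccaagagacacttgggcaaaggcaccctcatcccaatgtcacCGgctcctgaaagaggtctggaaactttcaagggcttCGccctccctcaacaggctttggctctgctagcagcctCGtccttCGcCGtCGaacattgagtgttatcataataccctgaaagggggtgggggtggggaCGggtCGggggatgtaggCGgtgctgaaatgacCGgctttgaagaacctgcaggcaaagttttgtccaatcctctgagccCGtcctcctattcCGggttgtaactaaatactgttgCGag
Hoxd13: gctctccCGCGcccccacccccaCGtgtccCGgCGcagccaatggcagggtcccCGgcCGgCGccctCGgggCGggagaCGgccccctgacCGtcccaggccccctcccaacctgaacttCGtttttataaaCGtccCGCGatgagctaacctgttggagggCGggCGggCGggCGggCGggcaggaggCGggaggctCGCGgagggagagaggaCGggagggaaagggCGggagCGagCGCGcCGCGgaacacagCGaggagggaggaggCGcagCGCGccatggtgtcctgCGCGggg
Hoxa5: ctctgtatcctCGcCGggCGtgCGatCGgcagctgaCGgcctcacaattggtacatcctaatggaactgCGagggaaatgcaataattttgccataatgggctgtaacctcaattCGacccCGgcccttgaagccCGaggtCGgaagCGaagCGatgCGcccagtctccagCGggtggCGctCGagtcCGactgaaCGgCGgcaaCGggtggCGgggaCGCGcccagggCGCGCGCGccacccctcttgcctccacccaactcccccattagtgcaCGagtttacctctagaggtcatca
Hoxd4: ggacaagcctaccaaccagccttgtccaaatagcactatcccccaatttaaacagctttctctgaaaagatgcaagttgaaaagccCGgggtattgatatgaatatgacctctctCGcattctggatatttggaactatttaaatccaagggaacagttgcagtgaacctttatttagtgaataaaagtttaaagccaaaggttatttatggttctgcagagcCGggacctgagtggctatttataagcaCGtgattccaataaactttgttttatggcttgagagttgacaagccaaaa
Hoxa11: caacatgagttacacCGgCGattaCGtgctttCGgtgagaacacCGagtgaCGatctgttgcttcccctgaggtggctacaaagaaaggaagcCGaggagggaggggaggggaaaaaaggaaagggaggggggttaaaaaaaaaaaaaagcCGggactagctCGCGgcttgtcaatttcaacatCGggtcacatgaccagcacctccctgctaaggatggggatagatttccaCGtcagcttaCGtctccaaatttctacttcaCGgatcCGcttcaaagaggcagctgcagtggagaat

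The dinucleotide CG reads the same on both strands and is where mammalian DNA is mainly methylated. It occurs 13 times in the Hoxd12 sequence, 37 times in Hoxd13, 29 times in Hoxa5, 4 times in Hoxd4 and 15 times in Hoxa11. Among 32851 promoters of this length, 37.9% have at least as many as Hoxd12, 5.58% as Hoxd13, 12.9% as Hoxa5, 68.6% as Hoxd4 and 34.6% as Hoxa11. RefSeq entries matched 22 members with 24 promoters, which held 4 to 45 CG with a median of 14.5, against a median of 7 over all promoters. The Hox start regions were thus of widely different CG content, and 20 of the 24 lay above the median of all.

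Of the Hox genes, 3 from the posterior groups 11 to 13 were higher in KO kidneys and 2 from the middle of their clusters were lower. Hoxd12 rose 4.11-fold, Hoxd13 rose 5.08-fold and Hoxc11 rose 1.79-fold, while Hoxd8 fell to 0.613 and Hoxa7 to 0.686 of the control level. Most of the other members, including the kidney regulators Hoxa11 and Hoxd11, did not pass the test. Of the 38 members, 33 had enough reads to be tested, 3 were higher and 2 were lower (adjusted p under 0.05, edgeR's quasi-likelihood test over 18132 genes), where 6.36% of all tested genes were higher and 8.23% lower. The members' counts were of the order of this background, and their median log2 fold change was 0.04, against -0.000738 over all tested genes.

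**Figure D1:**
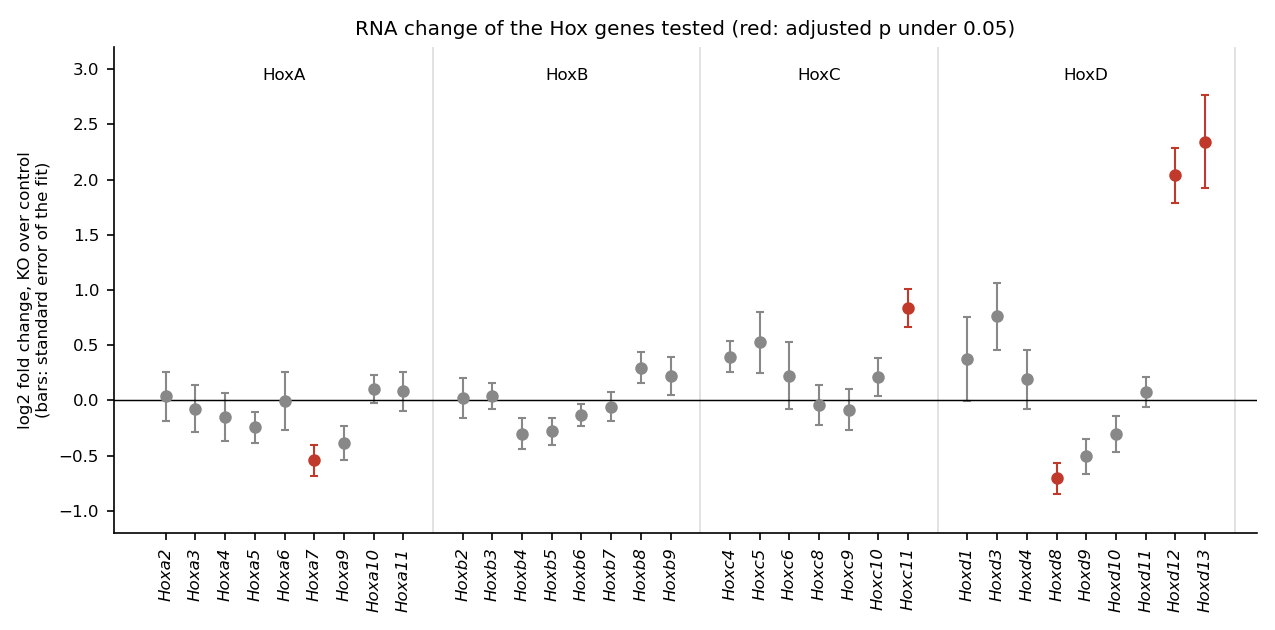
Log2 fold change of RNA, KO against control, for each of the 33 tested Hox genes in the order of their clusters and paralog groups, with bars of 1 SE and red points where the adjusted p was under 0.05. Hoxd12 and Hoxd13 lie above 2, Hoxc11 at 0.84, and Hoxa7 and Hoxd8 at -0.54 and -0.71.

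Hoxd12, a 5′ HoxD gene used in digit and genital development, lies at chr2:74675013-74677705. It was read at 3.75, 5.08 and 2.83 CPM in the controls and at 13.7, 17.4 and 16.7 CPM in the KO samples, from 104 to 157 and from 440 to 532 reads. Every KO sample lay above every control. The means were 3.88 ± 1.13 and 16.0 ± 1.98 CPM (SD, n = 3 each; log2 fold change 2.04, SE 0.25, adjusted p = 0.00145, edgeR's quasi-likelihood test with Benjamini-Hochberg adjustment).

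Hoxd13, its neighbour at chr2:74668225-74671603 and the last gene of the cluster, patterns digits, the hindgut and the genital tubercle. It was read at 0.122, 0.259 and 0.217 CPM in the controls, from 4, 8 and 8 reads, and at 0.748, 1.02 and 1.33 CPM in the KO samples, from 24, 31 and 35 reads. The groups did not overlap, but the level stayed near 1 CPM in the KO, so the fold rests on few reads. The log2 fold change was 2.34 (SE 0.42, adjusted p = 0.00818, edgeR's quasi-likelihood test with Benjamini-Hochberg adjustment).

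Also higher, Hoxc11 (chr15:102954526-102956701), belongs to the group that acts in kidney induction. The level was 6.40, 7.96 and 7.45 CPM in the controls and 13.2, 12.6 and 13.1 CPM in the KO samples, which all lay above the controls. The log2 fold change was 0.84 (SE 0.17, adjusted p = 0.0141, edgeR's quasi-likelihood test with Benjamini-Hochberg adjustment). The call was lost without control replicate 1 (adjusted p = 0.0544, edgeR) and without KO replicate 1, 2 or 3 (0.0673, 0.0599 and 0.0607).

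Its paralogs did not pass the test. Hoxa11 (chr6:52242105-52245810) was read at 39.9, 47.96 and 31.4 CPM in the controls and at 38.3, 39.2 and 48.6 CPM in the KO samples, so the groups overlapped (log2 fold change 0.08, SE 0.18, adjusted p = 0.825, edgeR). Hoxd11 (chr2:74679558-74687016) was read at 56.8, 57.2 and 47.1 CPM in the controls and at 51.3, 53.9 and 64.6 CPM in the KO samples, also overlapping (log2 fold change 0.08, SE 0.13, adjusted p = 0.779, edgeR). Neither had a stable sign: without control replicate 3 the log2 fold changes were -0.06 for Hoxa11 and -0.01 for Hoxd11, and without KO replicate 3 they were -0.04 and -0.03. The difference in response between Hoxc11 and these 2 paralogs was not tested. Hoxa11 overlaps the antisense gene Hoxa11os, and Hoxd11 overlaps Hoxd10 in the annotation, so reads there may have been left out as ambiguous.

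Below the limit for testing were 5 members, 4 of them from groups 12 and 13. Hoxa13, which acts in the limb and the urogenital sinus, had 0, 0 and 1 reads in the controls and 14, 1 and 6 in the KO samples, a ratio of depth-scaled sums of 24.3 with a 95% counting interval of 3.92 to 1007. Hoxc13, known for its part in hair growth, had 1, 1 and 2 against 11, 7 and 10 reads, a ratio of 8.11 (interval 2.84 to 31.8). In both genes the KO samples lay above the controls in CPM, although Hoxa13 rested mainly on KO replicates 1 and 3. Hoxb13 had 0 reads in all controls and 0, 2 and 1 in the KO samples, and Hoxc12 had 0 in all controls and 1, 4 and 0 in the KO samples: 0 reads over the 3 controls allow up to 0.0295 CPM. Hoxb1, the hindbrain gene at the other end of HoxB, had 8, 2 and 4 against 9, 9 and 10 reads, a ratio of 2.32 (interval 1.18 to 4.77). These intervals cover counting error only. With no filter on low counts edgeR's quasi-likelihood test called Hoxa13 and Hoxc13 higher, and Hoxc13 also passed the filter and was called without control replicate 2, control replicate 3 or KO replicate 2.

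Split by position, 9 members belong to groups 11 to 13. Of the 5 tested, 3 were higher, none was lower and all 5 had positive log2 fold changes, with a median of 0.84. Of the 29 members of groups 1 to 10, 28 were tested, none was higher, 2 were lower and 13 had positive values, with a median of -0.02. The split was chosen with these results known and is given as a description.

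Both genes that fell lie in the middle of their clusters. Hoxd8 (chr2:74704615-74707933), one of the trunk Hox genes, was read at 104.7, 109.7 and 129.4 CPM in the controls and at 72.6, 78.9 and 59.2 CPM in the KO samples, with no overlap (log2 fold change -0.71, SE 0.14, adjusted p = 0.0132, edgeR). Hoxa7 (chr6:52215623-52218573), which patterns the thoracic skeleton, was read at 27.5, 31.1 and 29.4 CPM in the controls and at 21.9, 17.7 and 20.8 CPM in the KO samples, again with no overlap (log2 fold change -0.54, SE 0.14, adjusted p = 0.0339, edgeR). Leaving out KO replicate 1 or KO replicate 3 ended both calls, with adjusted p = 0.0566 and 0.0555 for Hoxd8 by edgeR, and of the fits with 1 sample left out, Hoxa7 was called only in that without control replicate 3. Hoxd8 overlaps the gene Gm38462, and the strand setting of the counting is not given in the sources used here.

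The members with the most reads in their clusters, uncorrected for length, were Hoxa10, Hoxb9, Hoxc10 and Hoxd9. Hoxa10, a gene of the kidney stroma, was read at 89.2, 104.0 and 113.9 CPM in the controls and at 110.4, 100.3 and 118.7 CPM in the KO samples (log2 fold change 0.10, adjusted p = 0.678, edgeR). For Hoxb9 the controls had 132.3, 129.5 and 87.8 CPM and the KO samples 122.8, 149.6 and 134.4 CPM (0.22, adjusted p = 0.473, edgeR). Both sets of samples overlapped. Hoxc10 gave 55.8, 49.7 and 38.4 against 50.5, 50.4 and 66.0 CPM (0.21, adjusted p = 0.485, edgeR), overlapping as well. Hoxd9 gave 140.5, 145.3 and 99.8 against 83.2, 92.98 and 95.04 CPM: all KO samples lay below the controls, but the test was not passed (-0.51, SE 0.16, adjusted p = 0.0677, edgeR).

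**Figure D2:**
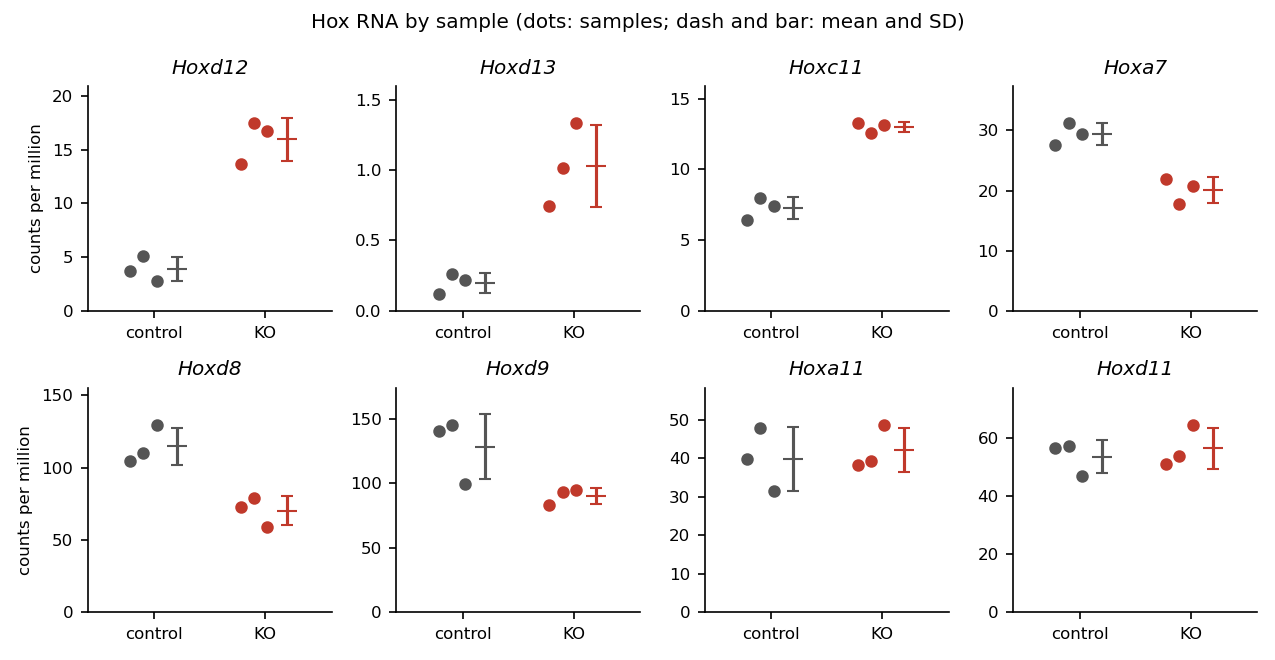
RNA level (CPM) of 8 Hox genes in each of the 3 control and 3 KO samples, as points, with the mean as a dash and 1 SD as a bar. The KO points lie above the controls for Hoxd12, Hoxd13 and Hoxc11, below them for Hoxa7, Hoxd8 and Hoxd9, and among them for Hoxa11 and Hoxd11.

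In all, 28 tested members were not called (log2 fold changes of -0.51 to 0.76). An unadjusted p under 0.05 was found for 10 of the 33, a share not counted over all genes. All KO samples lay above all controls in 5 of the 33 and below them in 6. Over all 18132 tested genes this held for 2998 and 3235. Of those not called, Hoxc4 (log2 fold change 0.39) and Hoxb8 (0.30), which acts in blood and microglial lineages, had all KO samples above the controls. Hoxb4 (-0.30), Hoxb5 (-0.28), Hoxb6 (-0.13) and Hoxd9 had all KO samples below. Among the remaining trunk and anterior genes, Hoxd3 gave 0.76 with an SE of 0.30, and Hoxc5 gave 0.53 with an SE of 0.28. The anterior genes Hoxa2, Hoxb2 and Hoxb3, which pattern the hindbrain and pharyngeal arches, gave 0.04, 0.02 and 0.04. Hoxb7, whose regulatory DNA drives expression in the ureteric bud, gave -0.06. Control replicate 3 read higher than the other controls in several anterior and trunk genes, for example 22.4 CPM of Hoxc6 against 10.998 and 10.4, and without it 7 members were called higher, among them Hoxc5, Hoxc6, Hoxc13 and Hoxd3, and 3 lower. This library also stood apart in cell type markers: the proximal tubule gene Slc34a1 was at 1532 CPM against 430 and 407 CPM in the other controls, the distal tubule gene Slc12a3 at 241 against 97.8 and 67.7 CPM, and Six2 at 41.4 against 98.0 and 107.0 CPM.

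Summed over the members of a cluster, HoxC gave 137 to 140 CPM in the controls and 147 to 183 CPM in the KO samples. HoxD gave 376 to 405 and 315 to 332 CPM. All KO sums lay above the controls in HoxC and below them in HoxD, which holds both Hoxd8 and the rising Hoxd12 and Hoxd13. HoxA gave 302 to 363 and 283 to 337 CPM, and HoxB 434 to 520 and 478 to 535 CPM, both overlapping.

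Marker RNA of several kidney cell types differed between the groups as well. Of all tested genes, 6.36% were higher and 8.23% lower. All 12 tested markers of podocytes, proximal tubule, loop of Henle and distal tubule were lower in the KO, with summed levels of 696 to 955 CPM against 248 to 316 for the 5 podocyte genes, 1250 to 3145 against 285 to 331 for the 4 proximal genes and 996 to 1319 against 95.8 to 137 for the 3 distal genes. Of 4 endothelial markers 3 were lower (472 to 701 against 318 to 394 CPM). Of 9 stromal markers 3 were higher (3541 to 4271 against 3537 to 4257 CPM), of 9 ureteric bud and collecting duct markers 3 were higher (802 to 1360 against 1083 to 1668 CPM), and of 7 nephron progenitor markers 2 were higher and Cited1 was lower (259 to 577 against 464 to 526 CPM). In the KO samples Six2 itself was read at 84.4, 93.8 and 104.8 CPM, overlapping the controls. Of 4 leukocyte markers 1 was higher (61.0 to 80.3 against 59.1 to 87.2 CPM). Of tissues outside the kidney, 0 of 3 tested skeletal muscle, 0 of 3 neural and 0 of 2 adrenal and gonad markers were called. Their median log2 fold changes were 1.77, 1.06 and 0.25. Their summed levels were 1.52 to 20.4 against 1.51 to 64.1, 3.38 to 8.41 against 7.30 to 8.10 and 2.71 to 6.85 against 3.48 to 4.18 CPM. No marker in these lists was at 0 in all libraries. The part of these shifts in the Hox values was not tested.

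Other genes of Hox regulation are given beside the share over all tested genes, of which 6.36% were higher and 8.23% lower. The lists were not tested against that share. Of 9 cofactor genes, which encode the Pbx and Meis proteins that bind DNA together with Hox proteins, only Meis1 passed the test (70.2 ± 11.02 to 102 ± 8.28 CPM, SD, n = 3 each, log2 fold change 0.54, adjusted p = 0.0377, edgeR). Of 30 genes of the Polycomb complexes, which keep Hox genes silent, only Eed was called (0.40, adjusted p = 0.0426, edgeR), and the 10 trithorax genes, which oppose them, had adjusted p-values of 0.132 (Kmt2a) or above by edgeR. The medians of these lists were 0.13, 0.09 and 0.13 on the log2 scale. Of 7 tested upstream regulators, 6 of them in retinoic acid signalling, which switches on Hox genes, 2 were higher: Aldh1a2, an enzyme of its synthesis, by 1.02 (adjusted p = 0.0126, edgeR) and the receptor gene Rarb by 0.61 (adjusted p = 0.0244, edgeR). The other receptor genes Rara (-0.29) and Rarg (0.25), the retinoic acid hydroxylase genes Cyp26a1 (0.38) and Cyp26b1 (0.58) and the ligand gene Gdf11 (0.28) did not pass. Cdx2, a further Hox regulator, had 0 reads in every library.

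Among 11 partners and targets of the group 11 genes, 3 were higher and 2 were lower, where 6.36% and 8.23% of all tested genes were. Osr1, Eya1 and Six2 are also among the nephron progenitor markers above, Ret among the ureteric bud markers and Wt1 among the podocyte markers, and the part of those shifts was not tested. The transcriptional regulator genes Osr1 (log2 fold change 0.95) and Eya1 (0.65) and the Gdnf receptor gene Ret (0.92) rose, and Wt1 (-0.59) and the integrin gene Itga8 (-0.79) fell. Six2, the target of the group 11 complex in nephron progenitors, gave 0.20 (adjusted p = 0.741, edgeR), and Gdnf gave 0.56 (adjusted p = 0.109, edgeR) with all KO samples above the controls. Of 30 neighbouring and noncoding genes 22 were tested: Snx10 was higher (0.81), and Atp5g3 (-0.76) and the antisense RNA Hoxb5os (-0.53) were lower. These were 1 higher and 2 lower of 22, beside the 6.36% and 8.23% of all tested genes. Hotair, the noncoding RNA of the Hoxc11 region, had a mean of 0.761 CPM in the controls and 2.17 CPM in the KO (log2 fold change 1.499, adjusted p = 0.0527, edgeR), with no overlap of the samples.

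Methylation of the Hox clusters was low in newborn kidneys, less than 1 point lower in the KO and higher in adults. Over the 988 positions it averaged 7.61% ± 0.289 in controls, 6.67% ± 0.725 in KO kidneys and 17.0% ± 0.397 in adults (SD, n = 3 each). The KO value was 0.877 of the control value, and the adult value was 2.23 times it. Outside the clusters the KO value was 0.737 of the control value, and the adults differed by only -0.0033 points. The adult change of the clusters differed from that of the other positions by 9.36 points (exact permutation test over samples, p = 0.1, the smallest that 3 against 3 samples allow). For the KO no such test is given, because the clusters started lower than the points lost elsewhere.

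HoxA (chr6:52162417-52260880, 263 positions) was methylated at 4.79%, 4.79% and 4.66% in the controls, 4.36%, 4.33% and 4.67% in the KO and 14.01%, 13.8% and 14.3% in adults. HoxB (chr11:96194316-96368254, 269 positions) was at 8.94%, 9.23% and 8.43%, then 7.65%, 6.82% and 8.79%, and in adults 14.1%, 14.8% and 13.5%. In both clusters the KO samples overlapped the controls and the adults stood above all newborn samples. HoxC (chr15:102921131-103036856, 220 positions) was at 8.59%, 8.73% and 8.82% in the controls, 7.56%, 6.35% and 7.08% in the KO and 19.4%, 19.5% and 21.5% in adults. HoxD (chr2:74668225-74765142, 236 positions) was at 7.61%, 9.26% and 8.13%, then 7.62%, 6.25% and 8.99%, and in adults 20.1%, 19.8% and 21.5%. HoxC was the cluster in which the KO samples lay below all controls.

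The KO differences were -0.295 points for HoxA (p = 0.2), -1.11 for HoxB (p = 0.2), -1.72 for HoxC (p = 0.1) and -0.717 for HoxD (p = 0.5), by 2-sided exact permutation tests over samples. The adult differences were 9.28, 5.25, 11.4 and 12.2 points (p = 0.1 each, exact permutation test). Adjusted over the 8 tests by Benjamini-Hochberg, the exact p-values were 0.16 for the 4 adult differences and 0.16 to 0.5 for the KO differences. The KO values were not stable: HoxD lay between -1.40 (without KO replicate 3) and -0.03 (without KO replicate 2) and was -0.25 without control replicate 2 and -1.08 without control replicate 1, and HoxB lay between -1.63 (without KO replicate 3) and -0.65 (without KO replicate 2). At 20 calls HoxA gave -0.78 and HoxD -3.31, and weighted by coverage HoxA gave -1.17 and HoxB -0.56. A design of 3 against 3 samples cannot go under 0.1. Positions were read at a median of 16 to 89 calls per sample in the clusters, and these values are unweighted means over positions.

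**Figure D3:**
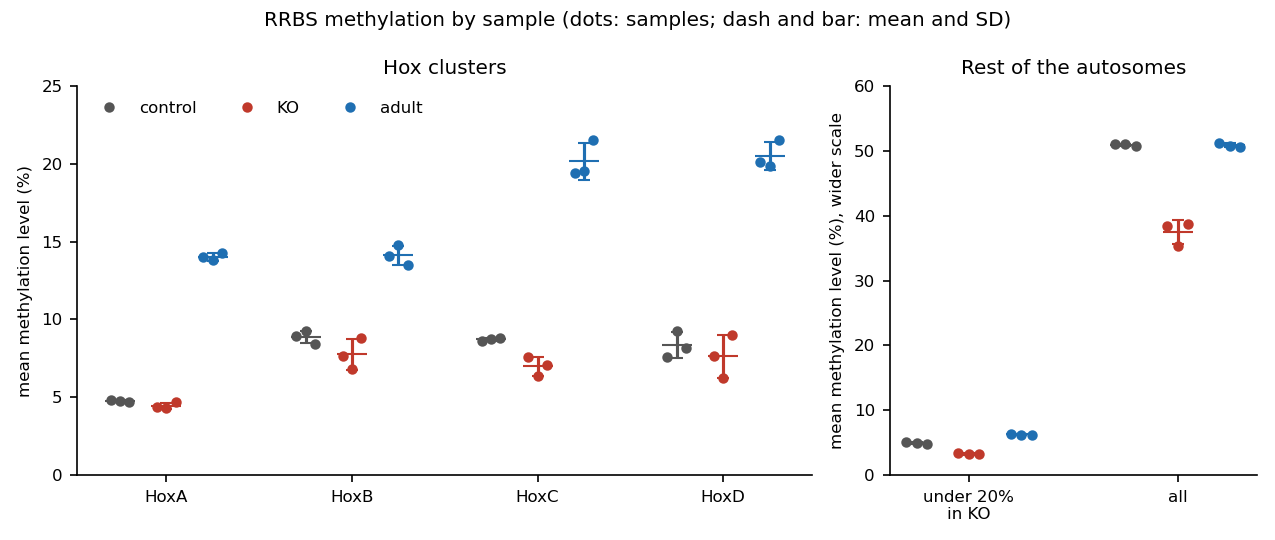
Mean methylation (%) of the 4 Hox clusters (left) and, on a wider scale, of the other autosomal positions (right, those under 20% in the KO and all) in each RRBS sample, as points, with the group mean as a dash and 1 SD as a bar. Adults sit above all newborn samples in each cluster, between 13.5% and 21.5%, while over all other positions the KO samples sit lower, at a mean of 37.5%.

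The flanks of the clusters, 100000 bases on each side, were methylated at higher levels. They held fewer positions than the clusters: 107 for HoxA, 118 for HoxB, 68 for HoxC and only 38 for HoxD. In controls they averaged 18.7% (HoxA), 40.7% (HoxB), 24.0% (HoxC) and 18.97% (HoxD), in the KO 15.5%, 30.3%, 18.5% and 14.9%, and in adults 21.4%, 42.6%, 33.7% and 20.6%. The adult difference was larger inside than in the flanks by 6.55 points for HoxA, 3.37 for HoxB, 1.73 for HoxC and 10.6 for HoxD (exact permutation test, p = 0.1 each). Because the clusters started lower than their flanks, the KO is given as a ratio to control: 0.938, 0.875, 0.803 and 0.914 inside HoxA, HoxB, HoxC and HoxD and 0.832, 0.745, 0.770 and 0.785 in their flanks. These ratios were not tested against each other.

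Because most cluster positions start low, they were also set against other positions in a low class, a comparison chosen after the data had been seen. Of positions under 20% in the KO, the 899 in Hox clusters went from 4.78% in controls to 13.2% in adults (2.75 times), and 134569 others from 4.91% to 6.26% (1.27 times). The gain differed by 7.04 points (exact permutation test, p = 0.1). Of positions at 20% or more in adults, the 284 in Hox clusters went from 20.01% in controls to 15.7% in the KO (0.785 times), and 227928 others from 76.6% to 56.1% (0.733 times). The control levels of this class differed between the clusters and the rest, so the losses are given as ratios, which were not tested against each other.

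Few positions of the clusters were methylated in newborn kidneys. Of the 988, 776 (78.5%) were under 10% in controls, 788 (79.8%) in the KO and 549 (55.6%) in adults. Those at 50% or more numbered 20, 17 and 113. In HoxD the share under 10% went from 73.7% in controls to 44.1% in adults, in HoxC from 70.9% to 45.0%, in HoxA from 87.5% to 63.9% and in HoxB from 80.3% to 66.2%.

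Tested one by one with the moderated quasi-binomial model, 30 of 1015 cluster positions were lower in the KO (2.96%) and 4 were higher (0.394%), against 35.2% and 0.127% of all 380162 positions tested. To be called, a position had to differ by 10 points or more with an adjusted p under 0.05. Positions under 10% in controls, 776 of the 988 read in every sample, cannot lose that much, so the gap to the share of all positions is bounded by the low starting level. The lower positions were 5 in HoxA, 8 in HoxB, 9 in HoxC and 8 in HoxD. Without KO replicate 2 there were 13 lower positions and without control replicate 2 there were 15, and the higher ones numbered 2 without control replicate 1 or KO replicate 2. All 30 were among the 284 positions at 20% or more in adults (10.6%, against 53.6% of all such positions, which started at higher levels).

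The largest called KO changes in HoxB, HoxC and HoxD were losses. At chr11:96232010 in HoxB, controls had 98.4%, 97.8% and 89.7% and KO samples 70.4%, 62.0% and 40.5% (adjusted p = 0.000105, moderated quasi-binomial model). At chr15:103016036 in HoxC, controls had 62.5%, 60% and 51.4% and KO samples 28.6%, 24.1% and 13.3%, and adults averaged 86.8%. At chr2:74736438 in HoxD, controls had 8.33%, 54.5% and 52.2% and KO samples 0, 3.45% and 7.69%, and adults averaged 72.8%. The KO samples lay below all controls at these 3 sites, and in HoxD control replicate 1, with 12 calls, was close to them.

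The 4 positions higher in the KO were examined because they were few, after their values were seen. In HoxA, chr6:52252656 went from 0, 2.27% and 18.2% to 38.1%, 94.7% and 36.4%, the largest called change of that cluster, and chr6:52252684, in the same stretch, from 16.7%, 10.6% and 9.09% to 45.5%, 95% and 33.3%. Both lie between Hoxa11 and Hoxa13, and adults averaged 50.8% and 55.4% there. Nearby, chr6:52254110, went from 0 in all controls to 17.4%, 12% and 20%, with 15.1% in adults. In HoxB, chr11:96254771 went from 0, 2.99% and 27.6% to 13.3%, 45.2% and 58.3%, with overlap and with 9.08% in adults. These sites rest on 11 to 67 calls per sample. At a minimum of 20 calls none of the 4 was tested, because KO replicate 3 had 11 to 15 calls there.

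In adults, 260 of 1937 tested cluster positions were higher than in controls (13.4%) and 0 were lower by the moderated quasi-binomial model, against 1.91% and 1.99% of all 704580 positions. At an unadjusted p under 0.05, 520 were higher and 21 lower, and Fisher's exact test on summed calls gave 488 and 7. No share over all positions is given for either, so these counts cannot be set against the background. Fisher's exact test takes no account of the spread between samples, and 32.5% of its calls on simulated data were false. Without control replicate 2 there were 139 higher positions and without adult replicate 3 there were 146. By cluster the called shares were 13.4% in HoxA (68 of 509), 7.89% in HoxB (42 of 532), 15.8% in HoxC (67 of 423) and 17.5% in HoxD (83 of 473). Among positions under 20% in the KO, 153 of 899 cluster positions (17.0%) were higher, against 3.28% of all.

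Single sites with low methylation in controls were mostly methylated in adults. At chr2:74734704 in HoxD, controls had 2.94%, 7.29% and 0 and adults 81.8%, 77.4% and 75.3% (adjusted p = 1.6e-09, moderated quasi-binomial model). At chr6:52248453 in HoxA, between Hoxa11 and Hoxa13, controls had 7.69%, 7.50% and 0 and adults 90.5%, 67.4% and 81.7%. The largest changes in the other clusters were at chr11:96339952 (9.39% to 72.7%) and chr15:103015669 (4.32% to 64.0%). In each case all adults stood far above all controls.

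Windows of 1 kb with at least 5 positions show where along the clusters the differences lay. In the KO, 4 of 85 windows were lower and 0 higher by the moderated model (7 and 0 at an unadjusted p under 0.05), against 37.8% and 0.121% of all 21421 windows, a gap bounded in the same way by the low starting level. In adults, 42 of 139 windows were higher and 0 lower (69 and 2 at an unadjusted p under 0.05), against 5.6% and 4.99% of 42782 windows. The shares of all windows are of called ones, and none is given for the unadjusted p. HoxD held the highest share of called adult windows, 18 of 36 (50%), followed by HoxA with 10 of 35 (28.6%), HoxC with 8 of 29 (27.6%) and HoxB with 6 of 39 (15.4%). Of the 42, 31 overlapped a member and 11 lay between members.

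The called adult windows were not spread evenly. In HoxA they ran from Hoxa2 to Hoxa6 and again from the body of Hoxa11 toward Hoxa13, with no called window among those tested from Hoxa7 to Hoxa10. In HoxB 4 of the 6 lay on either side of Hoxb9, outside any member, and the others in Hoxb5 and Hoxb3. In HoxC they lay at Hoxc11, between Hoxc11 and Hoxc10, and from Hoxc6 to Hoxc4. In HoxD they were found from just beyond Hoxd13 to beyond Hoxd3, 9 of them within the annotated bounds of Hoxd3.

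The 4 windows lower in the KO had intermediate methylation in controls and were higher in adults. At chr2:74736001-74737000, within Hoxd3, a gene of neck patterning, controls had 25.8%, 27.2% and 26.2%, KO samples 12.6%, 10.7% and 14.8%, and adults 52.7%, 54.8% and 57.1% (KO difference -13.7 points, adjusted p = 0.000166, moderated model). At chr15:103028001-103029000, within Hoxc4, the values were 36.0%, 43.1% and 43.8%, then 27.7%, 18.4% and 29.1%, and 70.0%, 67.5% and 68.5% (-15.9 points, adjusted p = 0.00524). In both windows all KO samples lay below all controls, and all adults above. At chr6:52163001-52164000, within Hoxa2, which sets the identity of the second pharyngeal arch, they were 33.9%, 30.9% and 36.2%, then 26.1%, 20.4% and 20.1%, and 75.9%, 73.8% and 75.8% (-11.5 points, adjusted p = 0.0141). The fourth, chr15:103012001-103013000 between Hoxc6 and Hoxc5, went from 21.6%, 23.4% and 17.0% to 11.4%, 8.12% and 2.73% (-13.2 points, adjusted p = 0.00164). HoxB had no such window: its largest KO difference was 7.89 points upward at chr11:96345001-96346000 within Hoxb3, with overlapping samples (adjusted p = 0.152, moderated model). A smaller loss in HoxB, at chr11:96264001-96265000 outside any member, went from 17.2%, 15.7% and 16.4% to 9.60%, 9.50% and 10.5%. That difference of -6.57 points (adjusted p = 0.048, moderated model) is under the 10 points required. So is one of -5.47 points in HoxD, at chr2:74721001-74722000 (adjusted p = 0.0383, moderated model). In both, all KO samples lay below all controls.

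The largest adult differences lay in gene bodies and between genes. Within the annotated bounds of Hoxa3, chr6:52170001-52171000 had 14.8%, 9.30% and 10.7% in controls, 9.14%, 12.04% and 3.70% in the KO and 76.9%, 70.4% and 60.8% in adults (57.8 points, adjusted p = 1.26e-06, moderated quasi-binomial model). Within Hoxb3, chr11:96332001-96333000 had 0.704%, 7.83% and 8.33% in controls, 2.36%, 3.13% and 17.6% in the KO and 31.7%, 37.8% and 42.8% in adults (31.8 points). Each adult lay above every newborn sample in these windows. Within Hoxc5, chr15:103015001-103016000 had 20.8%, 24.3% and 14.8% in controls and 59.6%, 54.6% and 54.6% in adults (36.3 points). Between Hoxd9 and Hoxd8, chr2:74701001-74702000 had 7.48%, 12.5% and 6.43% in controls, 25.4%, 15.5% and 10.2% in the KO and 49.4%, 47.5% and 41.5% in adults (37.3 points). Between Hoxa11 and Hoxa13, chr6:52249001-52250000 averaged 3.74% in controls and 51.6% in adults.

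**Figure D4:**
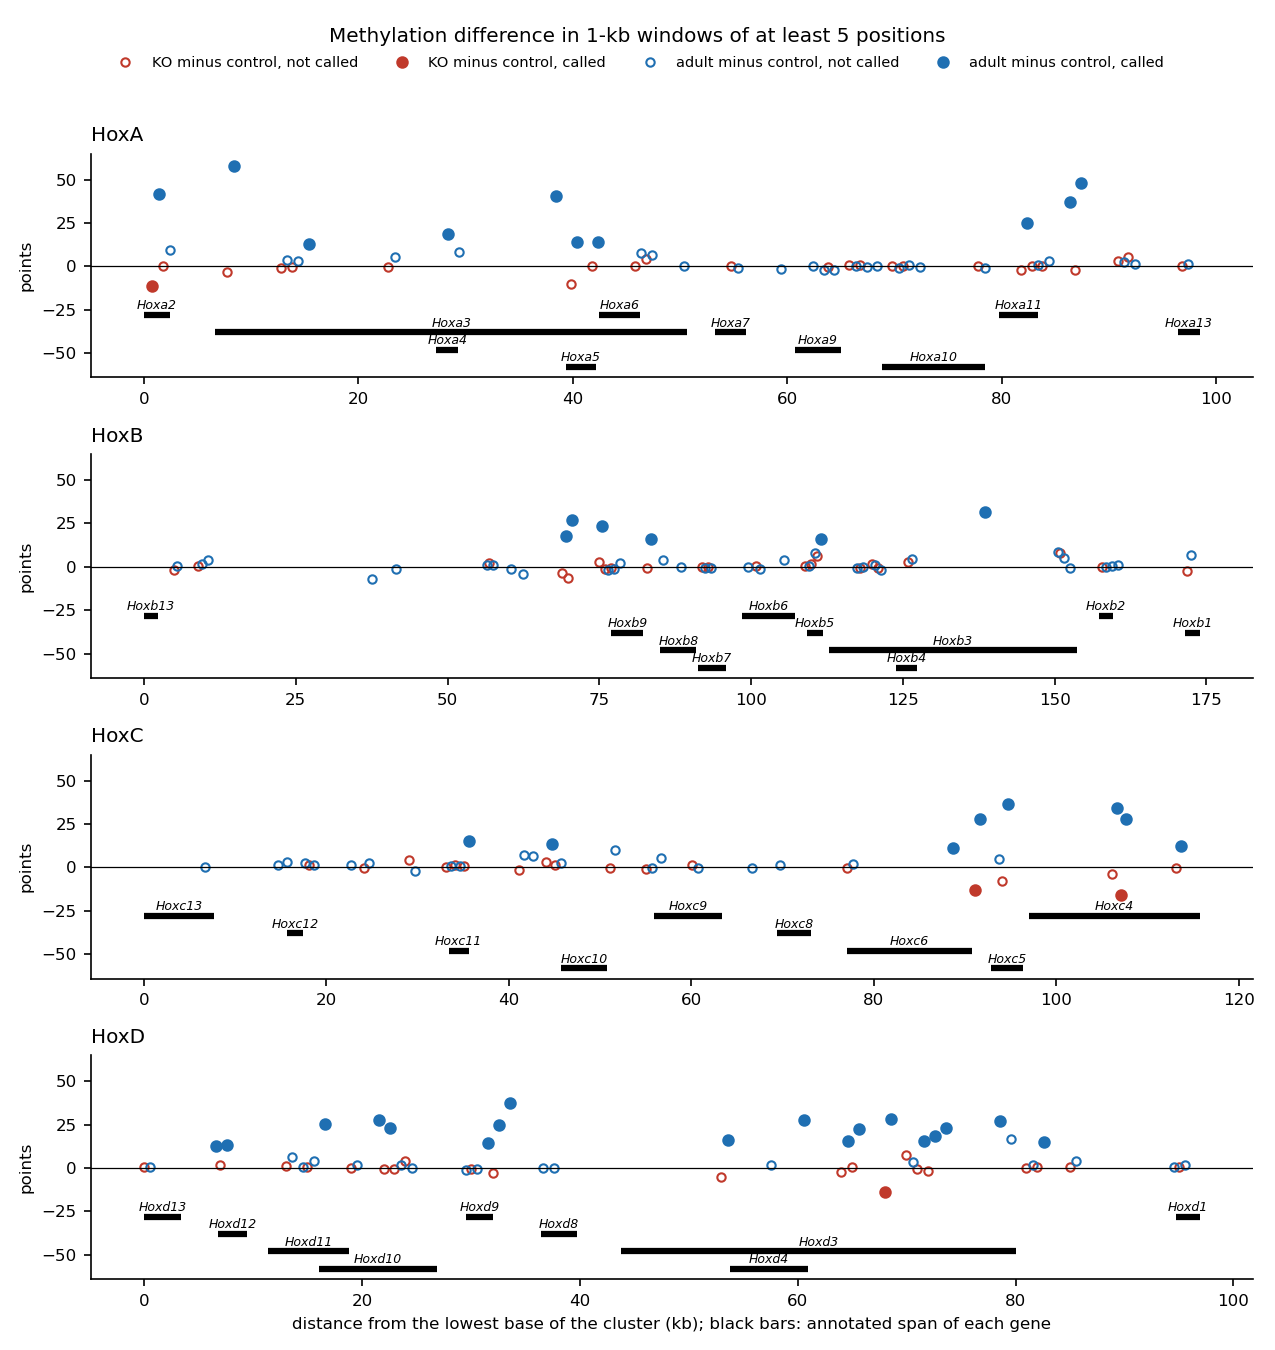
Methylation difference in points for each tested 1-kb window along the 4 clusters, by distance from the cluster's lowest base in kb, with KO minus control in red, adult minus control in blue, filled points where the window was called, and black bars for the annotated spans of the genes. Called adult windows lie between 11.3 and 57.8 points above 0, and the called KO windows between 11.5 and 15.9 points below it.

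At the starts of the genes methylation was low in newborn kidneys, and higher in adults at 9 members. Windows took in 1000 bases on each side of the start, or of both annotated ends for the 16 members with no strand in the tables used: Hoxa4, Hoxb2, Hoxb3, Hoxb5, Hoxb6, Hoxb7, Hoxb9, Hoxb13, Hoxc5, Hoxc6 and Hoxc8 to Hoxc13. The number of positions summed in a window differed between samples, for example 16 to 30 for Hoxa7 and 6 to 13 for Hoxb3. A difference in a start window can therefore also come from which cytosines were read, and this was not tested. The median over the 38 members was 2.08% in controls, 2.14% in the KO and 3.98% in adults. Under 10% were 34 members in controls, 35 in the KO and 26 in adults. In the KO 0 members were called by the moderated model, with 3 at an unadjusted p under 0.05, all lower, against 17.6% lower and 0.019% higher of all 20998 start windows. The 34 members under 10% in controls cannot lose the 10 points a call needs, so this count says nothing of a loss at them. In adults 9 were higher and 0 lower, with 22 and 0 at an unadjusted p under 0.05, against 2.27% and 4.76% of 22073 windows. The shares of all start windows are of called ones, and none is given for the unadjusted p. The median adult difference was 1.80 points over the members and -0.604 points over all windows.

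The 9 start windows higher in adults belong to genes from the anterior end to group 12. Those of Hoxb3 and Hoxc6 pool both annotated ends, so a gain at the start itself is not shown for these genes. Hoxb1, which specifies a segment of the hindbrain, had 5.50%, 11.2% and 9.62% in controls, 10.5%, 12.7% and 2.70% in the KO and 24.6%, 32.7% and 32.8% in adults (adjusted p = 0.000123, moderated quasi-binomial model). Hoxa5, known for its part in lung and neck development, had 1.81%, 1.72% and 1.15% in controls, 2.46%, 1.07% and 2.46% in the KO and 20.1%, 13.7% and 11.1% in adults (13.4 points, adjusted p = 1.38e-05). Hoxd4 had 15.8%, 17.3% and 14.3%, then 10.9%, 6.66% and 16.5%, and 33.9%, 29.7% and 34.6% (16.9 points). In these genes all adults lay above all newborn samples. The others were Hoxa2 (1.53% to 13.02%), Hoxa7 (6.72% to 18.5%), Hoxb3 (21.8% to 40.4%), Hoxc4 (2.87% to 15.9%), Hoxc6 (11.97% to 26.7%) and Hoxd12 (11.5% to 24.0%). A 1-kb window that partly overlaps that of Hoxa7, chr6:52217001-52218000, was read at the same 24 positions in all control and adult samples. It averaged 1.09% in controls and 0.397% in adults (adjusted p = 0.438, moderated model). Of the 9, 8 were in groups 1 to 10 and 1 in groups 11 to 13.

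Hoxc6 was the one member window with an adjusted p under 0.05 in the KO, and it pools both annotated ends of the gene. It had 12.2%, 13.8% and 9.93% in controls and 6.58%, 5.83% and 2.54% in the KO, a difference of -6.98 points (adjusted p = 0.00179, moderated model) that is under the 10 points required. Its RNA gave a log2 fold change of 0.22 with overlapping samples.

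**Figure D5:**
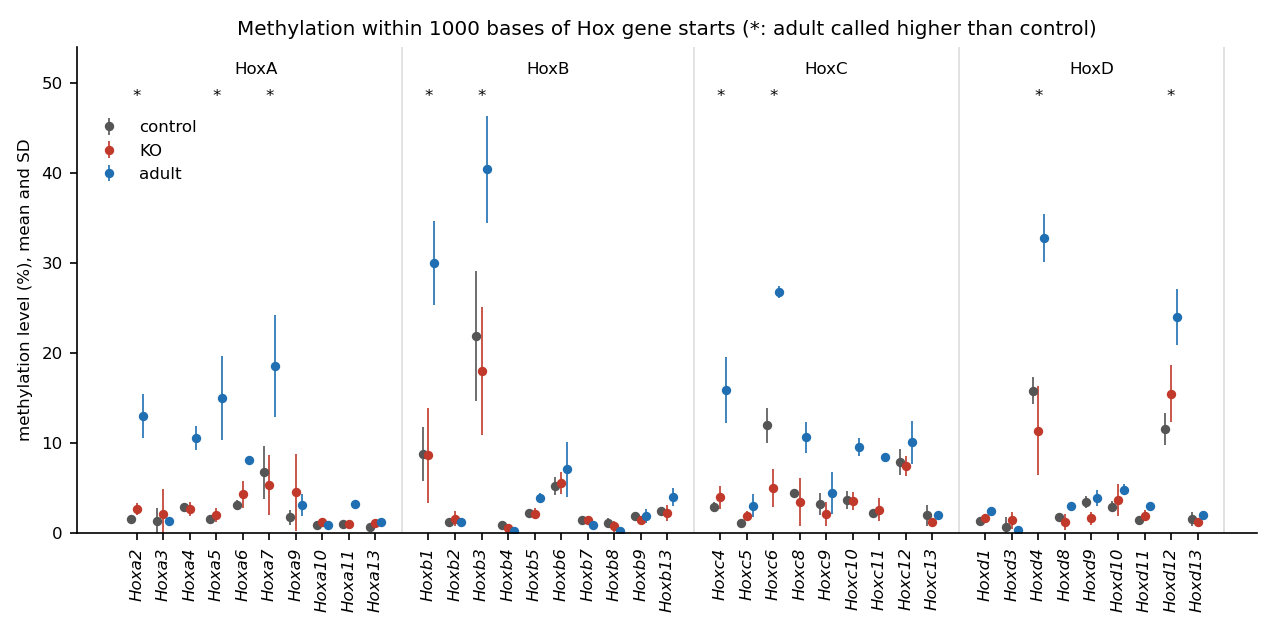
Methylation (%) within 1000 bases of the start of each of the 38 Hox genes, or of both annotated ends for the 16 with no strand given, Hoxb3 and Hoxc6 among them. Genes are ordered by cluster and paralog group, with group means of control, KO and adult samples and bars of 1 SD. Most windows lie under 10%, an asterisk marks the 9 windows called higher in adults, and the adult mean stands apart from the newborn means at Hoxb1 (30.04%), Hoxd4 (32.7%), Hoxc6 (26.7%) and Hoxd12 (24.0%).

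The starts of the Hox genes whose RNA changed were mostly too low in methylation for a loss to be called. Of these 5 genes only Hoxd12 was above 10% in controls, so at the other 4 a called loss was not possible. Hoxd12 had 9.90%, 13.5% and 11.2% in controls and 14.2%, 13.1% and 19.05% in the KO, a difference of 3.93 points upward (adjusted p = 0.516, moderated model). In its printed sequence 4 cytosines were measured, at 11, 23, 24 and 46 bases after the start: controls averaged 3.80%, 8.14%, 11.2% and 7.03% there, the KO 8.33%, 4.77%, 7.44% and 17.3%, and adults 33.8%, 16.8%, 19.6% and 46.8%. The KO mean was above the control mean at 2 of the 4 cytosines. It was below the control mean at those at 23 and 24 bases, which are the same CG read on both strands. The adult mean was above both newborn means at all 4. The start of Hoxd13 averaged 1.55%, 1.16% and 1.997% in the 3 groups, that of Hoxc11 2.21%, 2.59% and 8.42%, that of Hoxd8 1.77%, 1.23% and 2.95% and that of Hoxa7 6.72%, 5.32% and 18.5%. The window of Hoxc11 takes in both annotated ends. In the printed sequence of Hoxd13 no cytosine reached 10 calls in every RRBS sample. None of the 5 was called higher or lower in the KO, which does not show that they were equal.

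In the printed sequence of Hoxa5, 4 cytosines at -128, -134, -235 and -238 bases from the start averaged 3.70%, 0, 4.195% and 3.92% in controls, 5.56%, 0, 4.13% and 0 in the KO and 9.34%, 8.19%, 18.97% and 28.2% in adults. In that of Hoxd4, the 5 cytosines at -164, -135, -27, -26 and 0 averaged 12.2%, 23.2%, 8.34%, 14.6% and 1.08% in controls, 11.9%, 10.5%, 10.6%, 4.25% and 0 in the KO and 29.5%, 36.7%, 17.01%, 20.02% and 14.5% in adults. The cytosines at -27 and -26 are the same CG read on both strands. In both genes the adult mean was above the newborn means at every cytosine measured, while the KO mean lay on either side of the control mean or at it. In that of Hoxa11, 6 cytosines between -235 and -199 bases averaged 0.720%, 1.05% and 1.58%. The start window of Hoxa11 went from 0.974% to 3.25% in adults, while 1 kb within its body, chr6:52244001-52245000, went from 4.09% to 29.1% (adjusted p = 1.22e-07, moderated model). Its start and its body thus differed in the size of the adult gain, a comparison that was not tested.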

How the data were processed

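The authors deposited RNA-seq read counts per gene, and RRBS calls per cytosine as percent methylation with counts of methylated and unmethylated reads. Per the submitters' processing notes the genome build was GRCm38 (mm10) and the tools were Trim Galore, Bismark, STAR 2.4.1d and HTSeq 0.6.1; the versions of the first 2 and the strand setting are not given in the sources used here. Rows of the count files that name no gene (22.9% to 35.8% of reads unassigned per library) were left out.

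RNA was tested with edgeR 4.0.16 (R 4.3.3, TMM scaling, filterByExpr, quasi-likelihood test, Benjamini-Hochberg over 18132 genes, adjusted p under 0.05). Fold changes come from that fit, CPM from the TMM-scaled totals. Methylation was tested over the whole genome with a quasi-binomial model on calls with moderated dispersion of at least 1 (Python 3.11.15, numpy 2.4.6, scipy 1.17.1): positions read 10 times or more in all 6 samples, 1-kb windows of at least 5 positions, and start windows of at least 3 positions and 30 calls per sample. A call needed an adjusted p under 0.05 and 10 points. Cluster means were compared by 2-sided exact permutation over samples. No molecular identifiers are stated for the RRBS reads, so calls may not be independent molecules.

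Samples were grouped by the labels' genotype and age. Alternatives were DESeq2 1.42.0, other scaling and filters, Fisher's exact test, other call minimums and sizes, a replicate block, and leaving out each replicate. Tests were tried on simulated data: at 17807 genes the RNA test recovered 30% of genes changed by a log2 of 1 and 82% of those changed by 2 for KO against control, and at 60000 positions, 3 against 3, the methylation model recovered 48.4% of changed positions with 4.54% of its calls false. The changed positions were gains of 20 points at positions under 20%, at the depths of the control and adult samples. Losses and the depths of the KO samples were not simulated.

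The members and gene lists were chosen with earlier results of these data known. Named in full were the group 11 genes, called members, the member with the most reads per cluster, up to 3 genes with the smallest p per other list where the list is described, and the largest window and position change per cluster and comparison. One item of the gene lists is not reported here and was left out of their counts.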

Additional observations from a re-analysis of the deposited data

How the results depend on the processing

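The members called higher in the KO numbered 3 in the main test, 5 with no filter on low counts (adding Hoxa13 and Hoxc13), 2 with at least 10 counts in every sample (Hoxd13 untested), 2 with a replicate block and 2 to 7 when single replicates were left out. Those called lower numbered 2, 1 by library size alone, 1 with the block, 3 with no filter and 3 by DESeq2 (adding Hoxd9), and 0 to 3 with single replicates left out. Hoxd12 kept a log2 fold change of 1.85 to 2.28 and Hoxd13 of 2.09 to 2.56 when single replicates were left out; Hoxa11 ranged from -0.064 (without control replicate 3) to 0.23 and was -0.04 without KO replicate 3, and Hoxd11 ranged from -0.031 (without KO replicate 3) to 0.14 and was -0.01 without control replicate 3. With the block the adjusted p was 0.0573 for Hoxc11 and 0.115 for Hoxa7 (edgeR), and by library size alone 0.0664 for Hoxa7. Same-numbered samples did not deviate together (r = -0.236, -0.0653 and -0.124 for RNA, -0.0052 to 0.0051 for RRBS), so the numbers are not taken to pair samples.

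Positions lower in the KO numbered 30 in the main test, 68 by Fisher's exact test on pooled calls, 17 at 25 points, 4 as 1-kb windows, 0 with the replicate block and 13 to 27 with single replicates left out (13 without KO replicate 2, 15 without control replicate 2). Positions higher in the KO numbered 4, then 24 by Fisher's exact test, 0 at 20 calls, 0 as windows, 0 with the block, 2 among positions at 20% or more in adults (a class added after the data had been seen) and 2 to 5 with replicates left out. The 4 of the main test were not tested at 20 calls, because KO replicate 3 had fewer there. Positions higher in adults numbered 260, then 488 by Fisher's exact test, 42 as windows, 0 with the block, 153 among those under 20% in the KO (added likewise) and 139 to 205 with replicates left out (139 without control replicate 2, 146 without adult replicate 3); those lower numbered 0, and 7 by Fisher's exact test. On simulated data, 3 against 3, at 60000 positions, the block recovered 0% of changed positions, and of the calls by Fisher's exact test 32.5% were false. Start windows lower in the KO numbered 0, and 1 (Hoxc6) at 5 points; those higher in adults 9, then 14 at 5 points, 6 at 500 bases, 8 with the block and 7 to 9 with replicates left out.

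No cluster difference changed sign. The HoxA KO difference was -1.17 points weighted by coverage and -0.78 at 20 calls, the HoxB one -0.53 at 5 calls and -0.56 weighted, and the HoxD one -3.31 at 20 calls and -1.40 to -0.03 with replicates left out. The adult difference of HoxD was 19.2 points at 20 calls. The cause of these shifts was not tested. RRBS depth limits KO replicate 3 most, with 1227 cluster positions at 10 calls against 4704 in adult replicate 3.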
